A study of Octopus bimaculoides with 16 samples.

Results

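The olfactory organ of the octopus Octopus bimaculoides was set against skin from the mantle, a sensory epithelium against general body surface. Both tissues were dissected by hand and measured by bulk mRNA sequencing, with 1 library each. A gene was described when it had at least 10 counts per 1000000 reads of the library (CPM) in either tissue and when the tissues differed at least 4-fold after 1 CPM was added to both values. Of the 15842 genes in the deposited table, 8730 reached 10 CPM in either tissue. Of these 8730 genes, 326 (3.73%) were higher in the olfactory organ and 212 (2.43%) were lower, together 538. These counts follow from the rule, which used the same pair of libraries, so nothing is read from their direction.

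The series holds 16 samples, which are 8 libraries run on 2 lanes each, from 7 tissues. Besides the olfactory organ and mantle skin there were 2 libraries of whole sucker cups from arm R1, named automated and manual, and 1 library each of dissociated cells from sucker rims, of eye, of optic lobe (a part of the brain) and of statocyst (the balance organ). The labels state no animal, age, sex, strain or treatment for any tissue, nor whether tissues came from the same animal. The lanes of a library are repeat runs of it, so the spread between animals or dissections is unknown and no test was made. Intervals below are 95% intervals that cover counting error only.

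In cephalopods the olfactory organ is a small paired patch or pit of ciliated sensory epithelium that lies near the eye and the mantle opening. Its sensory neurons send axons to the brain, and it samples chemicals in the water that is drawn into the mantle. Mantle skin carries the chromatophore organs, which are pigment sacs opened by radial muscles under nervous control, together with reflecting cells, mucous cells, connective tissue and muscle. In bulk tissue, fewer cells of a type and less RNA per cell cannot be told apart.

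The olfactory organ library held 14264654 reads and the mantle skin library 4782744, the fewest of the 8 libraries, whose largest total was 36916825. A single read was worth 0.0701 CPM in the olfactory organ and 0.209 CPM in skin, so a floor of 3 reads stood at 0.21 CPM and 0.627 CPM. The files and the reference table give no functional names for the described genes. Receptors, channels, pigment genes and other families were therefore not counted, and the tissue labels were not checked against cell type markers. Genes are given by their LOC identifiers, and those beyond the pair with the largest ratio in each direction were chosen after their values were seen.

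The scaling to library totals left the middle of the distribution slightly above 0. The median log2 ratio of olfactory organ to skin over the 8730 genes was 0.17, with quartiles of -0.26 and 0.57. The genes higher in the olfactory organ had a median log2 ratio of 2.98 (quartiles 2.45 and 4.02), and the lower genes had a median of -3.52 (quartiles -5.02 and -2.57). Median-of-ratios size factors would move every log2 ratio by -0.22 and trimmed mean of M values (TMM) scaling by -0.19. Differences over 16-fold were held by 84 higher and 90 lower genes, and differences over 64-fold by 17 higher and 38 lower genes.

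**Figure D1:**
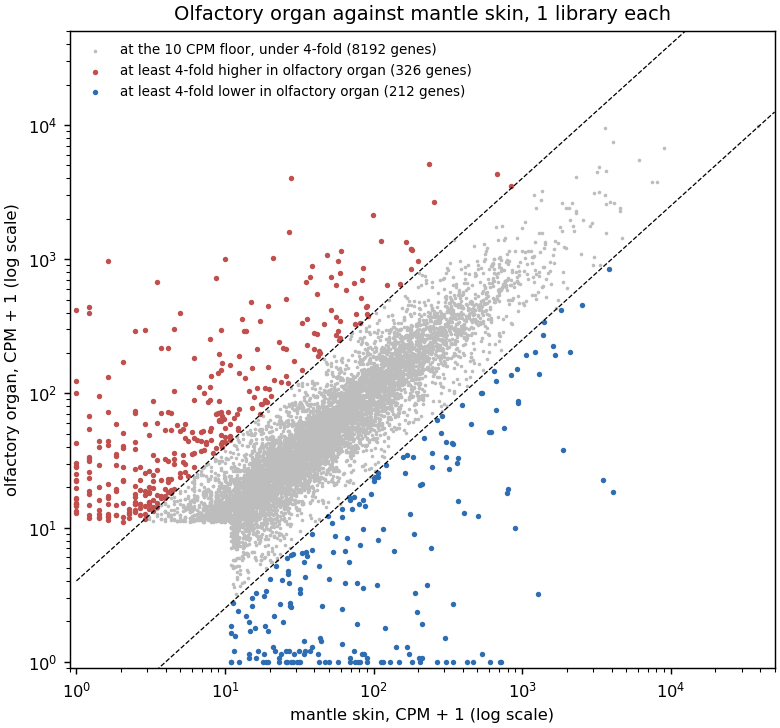
Each point is 1 of the 8730 genes with 10 CPM or more in either library, plotted as CPM + 1 in mantle skin (horizontal, log scale) and in olfactory organ (vertical, log scale). Red points are the 326 genes at least 4-fold higher in the olfactory organ, blue points the 212 lower genes, grey points the remaining 8192, and dashed lines mark 4-fold; blue points along the bottom are genes with no or few olfactory reads and up to 723 CPM in skin.

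The higher genes took 7.48% of olfactory organ reads (7.46 to 7.49%) and 0.726% of skin reads (0.719 to 0.734%). The lower genes took 6.29% of skin reads (6.27 to 6.32%) and 0.619% of olfactory reads (0.614 to 0.623%). At least 100 CPM in the higher library was reached by 111 higher and 92 lower genes, and at least 1000 CPM by 16 and 15. In a minority of the genes the contrast was one of degree. Of the 326 higher genes, 96 still had at least 10 CPM in skin, and 70 of the 212 lower genes had at least 10 CPM in the olfactory organ. At least 10 CPM in the lower of these 2 libraries was held by 7448 of the 8730 genes. No read in the lower library was found for 19 higher and 37 lower genes. A count of 0 reads allows up to 0.627 CPM in skin but 0.21 CPM in the olfactory organ, so these counts are not like measures.

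The largest log2 ratio among the higher genes, 9.21, belonged to LOC106871417. It had 963 CPM in olfactory organ, 0.627 CPM in skin, 583 and 573 CPM in the automated and manual cup libraries, 158 CPM in rim cells, 14.9 CPM in eye, 0.558 CPM in optic lobe and 7.98 CPM in statocyst. The skin value rests on 3 reads, and the ratio without pseudocount was 1536 (525 to 7447). Olfactory organ and both kinds of sucker sample were thus high for this gene, while skin stood beside optic lobe at the bottom.

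LOC106884259 had the next largest log2 ratio, 8.71, and a different profile. It had 418 CPM in olfactory organ, no read in skin and in rim cells, 0.254 and 0.121 CPM in the cup libraries, 1.23 CPM in eye, 4.09 CPM in optic lobe and 0.0659 CPM in statocyst. Taking 3 reads as the floor in skin, it was at least 667-fold higher, with an exact lower limit of 542. No other library came near the olfactory organ for this gene.

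The 326 higher genes were sorted by where else they reached 10 CPM. Whole cup (as the mean of its libraries) and rim cells formed the sucker side, and eye, optic lobe and statocyst formed the other side. Both sides were reached by 134 genes (41.1%), the sucker side alone by 76 (23.3%), the eye, optic lobe or statocyst alone by 62 (19.02%), and neither by 54 (16.6%). Among all 8730 genes the shares were 83.6%, 8.37%, 5.49% and 2.55%. The 134 genes with both sides took 4.52% of olfactory reads, the 76 sucker-side genes 2.31%, the 62 genes 0.336% and the 54 genes 0.310%. Taken over all 8730 genes, the same groups held 89.6%, 7.41%, 0.926% and 0.511% of olfactory reads. Genes with both sides thus had the largest read share in either case, and nothing particular to the higher genes is read from it.

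**Figure D2:**
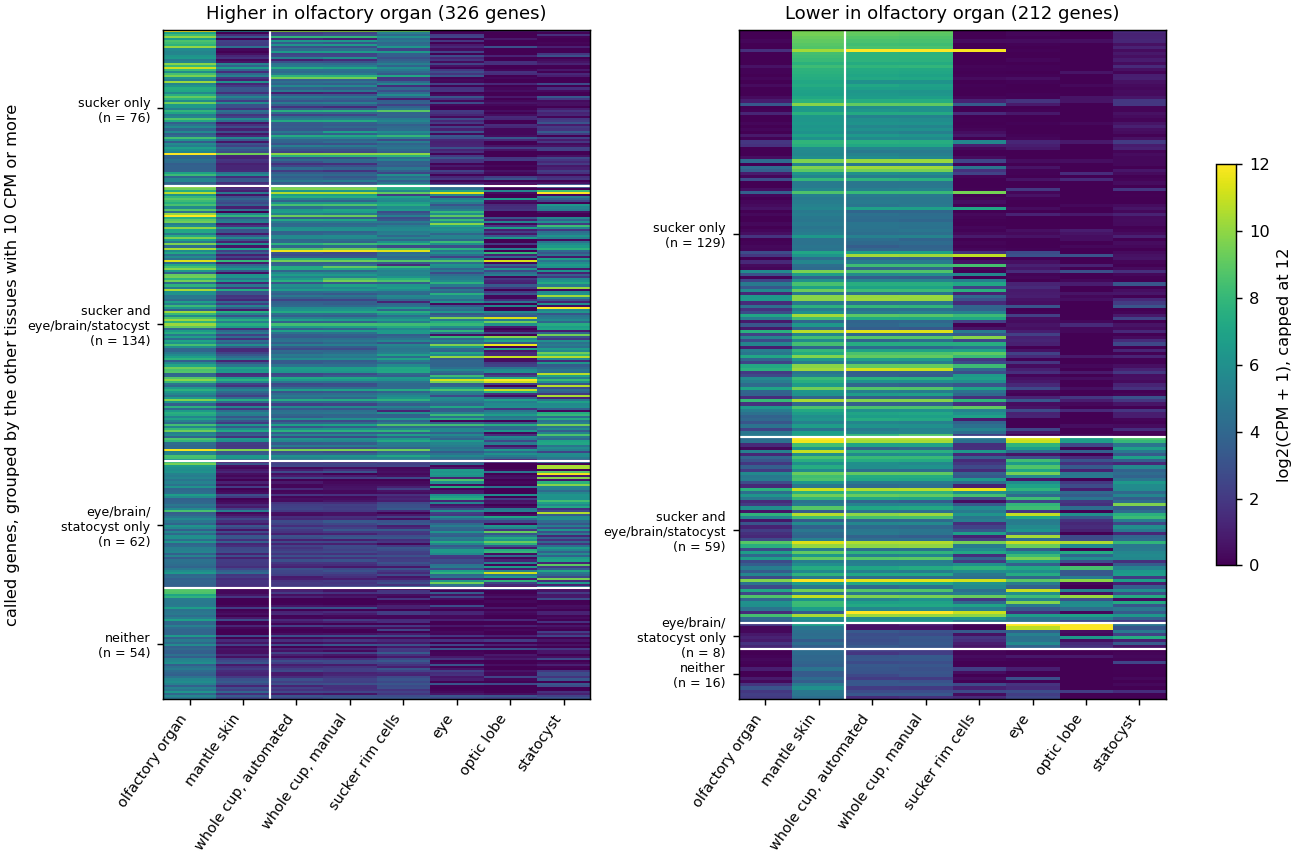
Rows are the 326 higher genes (left) and the 212 lower genes (right), columns are the 8 libraries, and color is log2(CPM + 1), capped at 12. White lines separate olfactory organ and skin from the other libraries and split the genes by where else they reach 10 CPM; the right panel is dominated by 129 genes that share the sucker side with skin, most of them dark in eye, optic lobe and statocyst.

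On the sucker side, the largest ratio to skin was that of LOC106882236. It had 4032 CPM in olfactory organ, 26.8 CPM in skin, 1041 and 999 CPM in the cup libraries, 568 CPM in rim cells, 0.0817 CPM in eye, 0.558 CPM in optic lobe and 1.12 CPM in statocyst. Its ratio of olfactory organ to skin was 151 (127 to 181). The gene was abundant in 3 tissues and close to absent from eye, optic lobe and statocyst, with skin between those levels. The 39 genes that reached 10 CPM in whole cup and rim cells and in none of eye, optic lobe and statocyst took 1.90% of olfactory reads and 0.135% of skin reads, with 0.409% and 0.416% in the cup libraries and 0.371% in rim cells.

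LOC106870155 had the highest olfactory organ CPM of the higher genes. It had 5140 CPM in olfactory organ, 236 CPM in skin, 642 and 609 CPM in the cup libraries, 34.5 CPM in rim cells, 495 CPM in eye, no read in optic lobe and 0.0659 CPM in statocyst. The ratio to skin was 21.8 (20.5 to 23.1). Here skin was not low in absolute terms, and eye rather than rim cells stood next to the cup.

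Among the genes shared with eye, optic lobe or statocyst alone, LOC106875999 had the largest log2 ratio, 6.90. It had 293 CPM in olfactory organ, 1.46 CPM in skin, 2.70 and 2.05 CPM in the cup libraries, 3.55 CPM in rim cells, 8.74 CPM in eye, 2.23 CPM in optic lobe and 12.8 CPM in statocyst. The ratio to skin was 200 (96.9 to 498). Statocyst passed 10 CPM only narrowly, so the olfactory organ stood far above every other library for this gene too.

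Statocyst was the highest of the other 5 tissues for 82 of the 326 genes (25.2%, against 36.6% of the 8730 genes), rim cells for 93 (28.5%, against 22.6%), whole cup for 67 (20.6%, against 13.9%), optic lobe for 46 (14.1%, against 17.9%) and eye for 38 (11.7%, against 8.92%). In 70 of the 326 genes (21.5%) statocyst lay above the olfactory organ itself. Over the 8730 genes it lay above both olfactory organ and skin in 43.0%. A lower share is built into the rule, which picks genes for a high olfactory value. In the 70 genes the olfactory level was 0.696 to 98.1% of the statocyst value (median 20.9%). LOC106867946 is such a gene. It had 67.1 CPM in olfactory organ, 0.209 CPM in skin from 1 read, 0.254 and 0.362 CPM in the cup libraries, 0.19 CPM in rim cells, 0.817 CPM in eye, no read in optic lobe and 1424 CPM in statocyst. Its ratio of olfactory organ to skin was 321 (57.5 to 12687). A group of 20 higher genes (6.13%, against 1.47% of the 8730 genes) reached 10 CPM in statocyst and in none of cup, rim cells, eye and optic lobe, and took 0.0777% of olfactory reads against 0.772% of statocyst reads.

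In 33 of the higher genes (10.1%) the optic lobe lay above the olfactory organ, against 24.9% of the 8730 genes in which it lay above both olfactory organ and skin. The olfactory organ had 3.90 to 99.1% of the optic lobe level (median 19.7%). Eye reached 10 CPM in 31 of the 33, against 81.9% of the 8730 genes. The latter share includes genes low in optic lobe, so nothing is read from this count. Their log2 ratios to skin ran from 2.04 to 3.50 with a median of 2.52. LOC106872507 had 969.8 CPM in olfactory organ, 198 CPM in skin, 84.7 and 81.9 CPM in the cup libraries, 63.3 CPM in rim cells, 2426 CPM in eye, 9726 CPM in optic lobe and 275 CPM in statocyst. The ratio of olfactory organ to skin was 4.90 (4.59 to 5.24). For this gene the optic lobe was highest, eye next and then the olfactory organ, with statocyst, skin, cups and rim cells below.

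Of the 326 higher genes, 54 reached 10 CPM in none of the other 5 tissues, and 53 of these were also under 10 CPM in skin. Whatever their skin level, 223 of the 8730 genes reached 10 CPM in none of the other 5 tissues, and most of these were less than 4-fold apart. In 13 genes skin and the other 5 tissues were all under 1 CPM. No more than 13 of the 8730 genes were under 1 CPM in the other 5 tissues. A gene at 10 CPM in olfactory organ and under 1 CPM in skin passes 4-fold by the rule. LOC106867307 had 131 CPM in olfactory organ, 0.627 CPM in skin, 0.423 and 0.362 CPM in the cup libraries, 0.352 CPM in rim cells, 0.49 CPM in eye, 0.186 CPM in optic lobe and 0.725 CPM in statocyst. Its ratio to skin was 209 (71.3 to 1013). All 7 other libraries were under 1 CPM for this gene, with no order to be read from them.

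**Figure D3:**
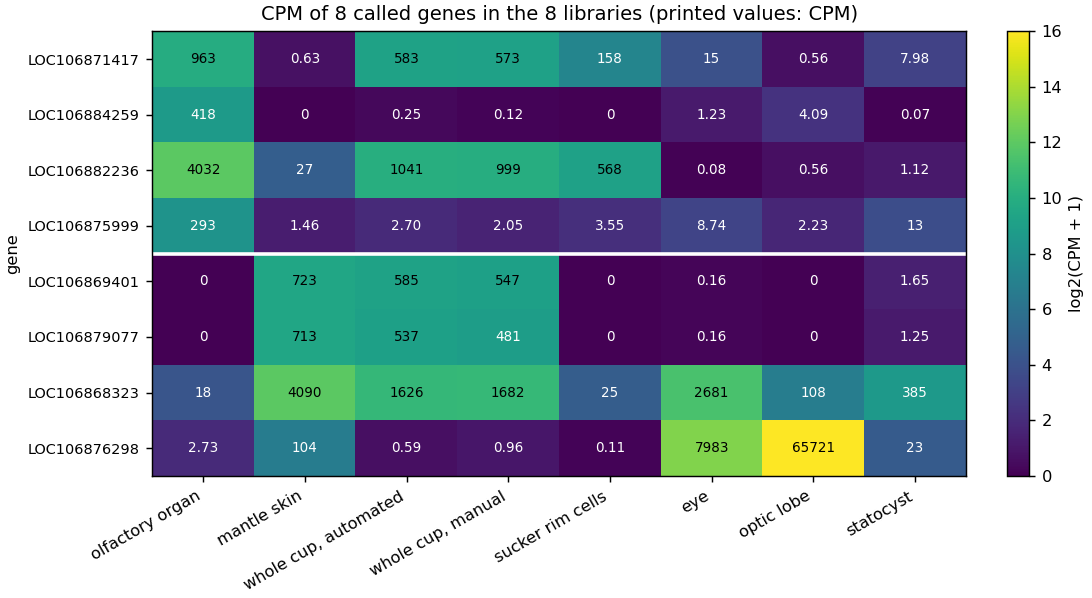
CPM of 8 genes (rows) in the 8 libraries (columns), with the value printed in each cell and color as log2(CPM + 1). The upper 4 genes were higher and the lower 4 were lower in the olfactory organ; each set holds the gene with the largest ratio in each of several profiles, from 418 CPM in the olfactory organ with no skin read (LOC106884259) to 723 CPM in skin with no olfactory read (LOC106869401).

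The 212 genes lower in the olfactory organ, hence higher in skin, had a narrower set of profiles. The sucker side alone was reached by 129 genes (60.8%), both sides by 59 (27.8%), eye, optic lobe or statocyst alone by 8 (3.77%) and neither by 16 (7.55%). Whole cup without rim cells, eye, optic lobe or statocyst accounted for 87 genes (41.0%), against 155 of all 8730 genes (1.78%). Whole cup was the highest of the other 5 tissues for 149 of the 212 genes (70.3%), against 13.9% of the 8730 genes.

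The largest ratio among the lower genes belonged to LOC106869401, with a log2 ratio of -9.50. It had no read in olfactory organ, 723 CPM in skin, 585 and 547 CPM in the cup libraries, no read in rim cells, 0.163 CPM in eye, no read in optic lobe and 1.65 CPM in statocyst. From 3456 skin reads and a floor of 3 olfactory reads, it was at least 3436-fold lower in the olfactory organ, with an exact lower limit of 2793. Skin and whole cups shared it, and rim cells did not.

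LOC106879077 followed with a log2 ratio of -9.48. It had no read in olfactory organ, 713 CPM in skin, 537 and 481 CPM in the cup libraries, no read in rim cells, 0.163 CPM in eye, no read in optic lobe and 1.25 CPM in statocyst. It was at least 3391-fold lower in the olfactory organ on the same floor, with an exact lower limit of 2756. The profile over the 8 libraries ran parallel to that of LOC106869401.

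This profile recurred. A set of 62 lower genes, drawn up after the values were seen, had at least 10 CPM in whole cup and under 2 CPM in olfactory organ, rim cells, eye, optic lobe and statocyst. The set took 0.845% of skin reads, 0.632% and 0.600% of reads in the cup libraries, and 0.00107% of olfactory reads, and 32 of its genes had no olfactory read. The 10 CPM asked of whole cup kept out genes with low cup values, so the width of the following range is partly set by the choice. Among the 37 lower genes with no olfactory read, taken without a limit on the cup, the ratio of cup to skin ran from 0.188 to 0.911. For the set of 62 genes the range was narrower at its low end. Whole cup CPM was 0.471 to 0.911 of skin CPM, with a median of 0.740 and quartiles of 0.686 and 0.794. For all genes with at least 10 CPM in both tissues the median was 0.869 and the quartiles were 0.759 and 1.01.

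**Figure D4:**
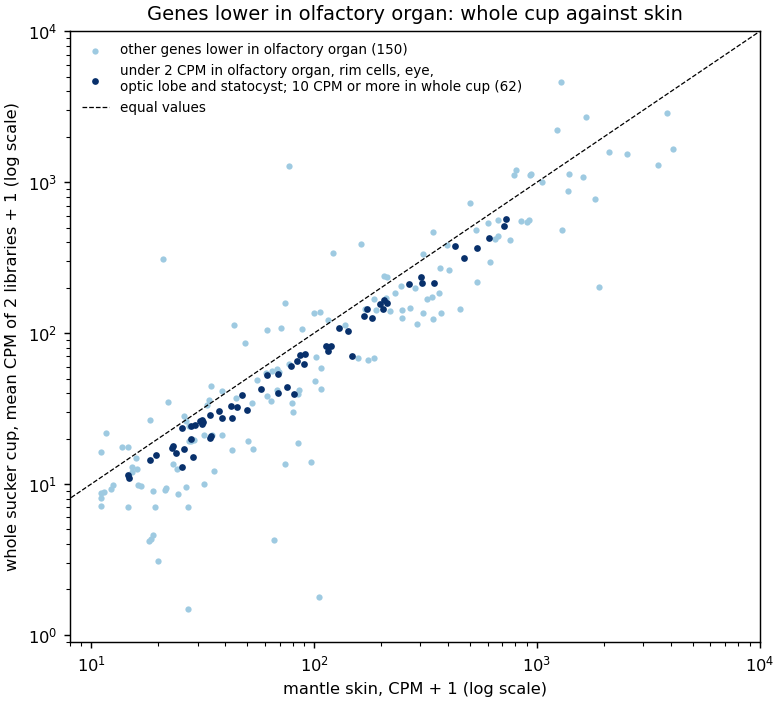
Each point is 1 of the 212 lower genes, with mantle skin CPM + 1 (horizontal, log scale) against whole sucker cup CPM + 1, the mean of its 2 libraries (vertical, log scale); the dashed line marks equal values. Dark points are the 62 genes under 2 CPM in olfactory organ, rim cells, eye, optic lobe and statocyst. Their choice also required 10 CPM in whole cup. They follow a band just below the line, with cup levels 0.471 to 0.911 of skin. The other 150 genes scatter more widely and hold every lower gene under 10 CPM in whole cup.

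Not every gene with high skin and cup values was missing from the library of dissociated rim cells. LOC106879367 had 2.17 CPM in olfactory organ, 1284 CPM in skin, 4744 and 4478 CPM in the cup libraries, 3822 CPM in rim cells, 0.0817 CPM in eye, no read in optic lobe and 0.33 CPM in statocyst. The ratio of skin to olfactory organ was 591 (416 to 870.3). For this gene the sucker libraries exceeded skin, as whole cup did in 37 of the 212 genes (17.5%) and rim cells in 24 (11.3%). Over the 8730 genes, whole cup lay above both olfactory organ and skin in 12.5% and rim cells in 29.3%. LOC106867894 went the other way, with 36.8 CPM in olfactory organ, 1891 CPM in skin, 206 and 194 CPM in the cup libraries, 81.2 CPM in rim cells, 16.8 CPM in eye, 11.7 CPM in optic lobe and 27.3 CPM in statocyst. Skin stood apart from every other library there, with a ratio to olfactory organ of 51.4 (47.1 to 56.2).

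Some lower genes were also abundant in the eye. LOC106868323 had the highest skin CPM of the lower genes. It had 17.5 CPM in olfactory organ, 4090 CPM in skin, 1626 and 1682 CPM in the cup libraries, 24.8 CPM in rim cells, 2681 CPM in eye, 108 CPM in optic lobe and 385 CPM in statocyst. The ratio of skin to olfactory organ was 233 (206 to 265). LOC106868320 had the same order of tissues from skin through eye and cup to statocyst, with 21.6 CPM in olfactory organ, 3474 CPM in skin, 1312 and 1278 CPM in the cup libraries, 20.3 CPM in rim cells, 2035 CPM in eye, 100.3 CPM in optic lobe and 256 CPM in statocyst. Its ratio was 161 (144 to 181). Olfactory organ and rim cells were the lowest libraries for both genes.

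Eye lay above skin itself in 28 of the 212 genes (13.2%) and optic lobe in 5 (2.36%). Over the 8730 genes, eye lay above both olfactory organ and skin in 28.8% and optic lobe in 24.9%, and the choice of genes for a high skin value again lowers such shares. The extreme case was LOC106876298. It had 2.73 CPM in olfactory organ, 104 CPM in skin, 0.592 and 0.965 CPM in the cup libraries, 0.108 CPM in rim cells, 7983 CPM in eye, 65721 CPM in optic lobe and 23.0 CPM in statocyst. The ratio of skin to olfactory organ was 38.1 (27.5 to 54.2). LOC106878764 was distributed in a like way, with 0.21 CPM in olfactory organ, 26.1 CPM in skin, 0.507 and 0.482 CPM in the cup libraries, no read in rim cells, 1750 CPM in eye, 11249 CPM in optic lobe and 7.78 CPM in statocyst. The 5 genes with optic lobe above skin took 7.75% of optic lobe reads, nearly all of the 8.22% that the 212 lower genes held there. Skin levels of the named pair were far below the eye and optic lobe levels but above those of the cups, rim cells and olfactory organ, and the source of these skin reads was not tested.

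The other tissues were compared with the described genes as a whole. At 10 CPM or more, whole cup held 50.3% of the higher genes and 88.7% of the lower genes, against 86.5% of the 8730 genes. The shares were 58.0%, 38.2% and 87.6% in rim cells, 49.1%, 28.3% and 81.9% in eye, 25.5%, 13.7% and 66.5% in optic lobe, and 45.4%, 24.5% and 79.6% in statocyst. In all 5 tissues together, 39 higher genes, 19 lower genes and 4943 of the 8730 genes reached that level. Whole cup was thus the single tissue where the share of lower genes came up to that of the 8730 genes. The rule gives every lower gene at least 10 CPM in skin, which 7872 of the 8730 genes had. The shares are therefore not like measures, and nothing is read from their being close. The optic lobe had the smallest share in both directions, as it had over the 8730 genes.

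**Figure D5:**
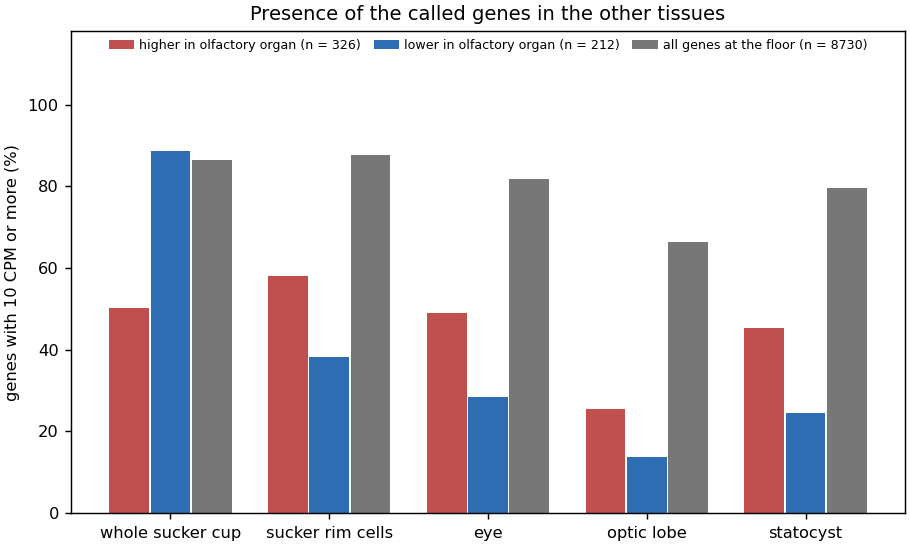
Percent of genes with 10 CPM or more (vertical axis) in each of the 5 other tissues, for the 326 higher genes (red), the 212 lower genes (blue) and all 8730 genes with 10 CPM or more in olfactory organ or skin (grey). The blue bar reaches the grey bar in whole sucker cup (88.7% and 86.5%) and stays below it in the other 4 tissues, and the red bars lie between 25.5% and 58.0%. By the rule all blue genes, but not all grey genes, have 10 CPM or more in skin.

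The distance of the other tissues from skin was taken for the lower genes, whose skin and olfactory values the rule had fixed at least 4-fold apart. Whole cup was within 2-fold of skin on the CPM + 1 scale in 158 of the 212 genes, eye in 25, rim cells in 23, statocyst in 15 and optic lobe in 3. Among all 8730 genes, whole cup was within 2-fold of skin in 8235, eye in 5454, rim cells in 7026, statocyst in 4501 and optic lobe in 3987. These counts describe the selected genes, and nothing is read from them about which tissue resembles which.

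Some described genes lay side by side in the gene order of the reference table, which is used here for order alone. Of 180 lower genes placed on it, 63 (35.0%) had a lower gene directly before or after them among the measured genes. This held for 138 of 7868 other genes at 10 CPM (1.75%). Of 289 placed higher genes, 40 (13.8%) had a higher gene next to them, against 291 of 7759 (3.75%). The lower genes formed 27 runs, 20 of 2 genes, 6 of 3 genes and 1 of 5 genes, and the higher genes formed 18 runs, 15 of 2 genes, 2 of 3 genes and 1 of 4 genes. Near-identical copies side by side can share reads, so members of a run may not be separate measurements, which was not tested.

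In 18 of the 27 lower runs every gene belonged to the sucker-side profile, which 129 of the 212 lower genes (60.8%) had. Among the higher runs this held for 2 of 18, with 76 of the 326 higher genes (23.3%) on the sucker side. Of the 62 genes shared by skin and whole cup, 54 were placed and 26 lay in a run. Of all 180 placed lower genes, 63 (35.0%) lay in a run. Members of a run may not be separate measurements, so nothing is read from these counts. Both genes with the largest ratios had such a neighbour. Beside LOC106869401 lay LOC106869412, with no read in olfactory organ, 427 CPM in skin, 379 and 370.3 CPM in the cup libraries, 0.0271 CPM in rim cells, no read in eye and optic lobe and 1.25 CPM in statocyst. Beside LOC106879077 lay LOC106879085, with no read in olfactory organ, 467 CPM in skin, 322 and 303 CPM in the cup libraries, no read in rim cells, 0.0817 CPM in eye, no read in optic lobe and 0.462 CPM in statocyst. Each neighbour repeated the pattern of skin and cups against the remaining libraries.

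The longest lower run held 5 genes, with skin values from 41.8 CPM in LOC106875414 to 229 CPM in LOC106875400. Olfactory values ran from no read in 3 of the genes to 2.73 CPM, and cup values from 25.9 to 189 CPM in the automated library. Rim cells had no more than 1.81 CPM except in LOC106875400, where they had 46.6 CPM. The end gene of the run therefore departed from its neighbours in rim cells, although not in skin, cups or olfactory organ.

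The longest higher run held 4 genes. LOC106877398 had 1004 CPM in olfactory organ, 8.99 CPM in skin, 229 and 231 CPM in the cup libraries, 66.4 CPM in rim cells, 4.57 CPM in eye, no read in optic lobe and 0.132 CPM in statocyst, a ratio to skin of 112 (82.9 to 154). The other 3 genes, LOC106877400, LOC106877401 and LOC106871150, had 38.1, 218 and 393 CPM in olfactory organ and 1.05, 3.14 and 3.97 CPM in skin. All 4 had cups next to the olfactory organ, rim cells below the cups and no read in optic lobe. An adjacent pair with another profile, LOC106878304 and LOC106878314, had 15.2 and 27.7 CPM in olfactory organ, no read in skin and at most 1 read in any other library.

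Near the 4-fold limit the choice between described and undescribed genes was fine. Just inside it on the higher side stood LOC106872816 with 10.6 CPM in olfactory organ and 1.88 CPM in skin (log2 ratio 2.01), and just outside LOC106883431 with 109 and 26.8 CPM (1.99). On the lower side, LOC106883983 was just inside with 11.2 and 48.1 CPM (-2.01), and LOC106877196 just outside with 1.82 and 10.2 CPM (-1.99). The counting intervals of all these ratios included 4-fold.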

How the data were processed

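The series measured bulk mRNA in 7 tissues. Per the labels' protocols, RNA came from a phenol and chloroform extraction and libraries from the Kapa mRNA HyperPlus kit. The submitters' processing notes name Trim Galore, software for trimming reads, and kallisto, software that quantifies transcripts. Tool versions, genome build, annotation and how the 2 lanes of each library were merged are not stated there. The authors deposited 1 table with 1 column per library, whose log2 values are log2(CPM + 1), a unit read from the deposited values: after inversion each column summed to 1000000, and 100% of values were whole multiples of 1 read within 0.01 reads. The plan had assumed values on a linear scale, so the log2 values were inverted to CPM first. Because kallisto estimates fractional counts, the recovered reads may be rounded values.

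Library totals and reads per gene were recovered from these multiples. Ratios in log2 use a pseudocount of 1 CPM and understate differences of low genes. Ratios without pseudocount have exact Clopper-Pearson intervals and shares of reads Wilson intervals, both at 95%, and a value of 0 was set to 3 reads per library for a lower bound. Intervals and floors cover counting error only, since no molecular identifiers are stated. With 1 library per tissue no test was made. For whole cup, CPM was averaged over its 2 libraries.

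The genes and groups were chosen with earlier results of these data known. The plan for named genes gives only the pair with the largest ratio in each direction where genes have no functional names; further identifiers were chosen after their values were seen. Of 15842 identifiers, 14305 were found in the reference table of the assembly ASM119413v2, which gave order for 13929 genes and no names for the described genes; positions and sequences are not reported. Lists by gene name, marker lists and protein comparisons were therefore not run. The scripts used Python 3.11.15, numpy 2.4.6, pandas 2.3.3 and scipy 1.17.1, and were tested on simulated data.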

Additional observations from a re-analysis of the deposited data

How the results depend on the processing

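The counts of 326 higher and 212 lower genes moved with the limits set. A pseudocount of 5 CPM gave 212 higher genes. A floor of 50 CPM gave 165 higher and 129 lower genes. A 2-fold limit gave 1009 and 594 genes, and a 16-fold limit 84 and 90; these settings admit fewer or more genes by construction. Both counts stayed within 1.5 times with a pseudocount of 0.1 CPM (367 and 228), median-of-ratios size factors (267 and 240), TMM scaling (284 and 240), olfactory reads thinned to 4780636 (323 and 213) and a counting bound past 4-fold (265 and 194), and with no floor (435 and 245).

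Shares of genes present in other tissues depended on the level that counts as present. At 1 CPM and 50 CPM, higher genes were present at 87.4% and 19.6% in whole cup, 89.6% and 20.2% in rim cells, 77.0% and 21.5% in eye, 48.2% and 13.2% in optic lobe, and 72.1% and 24.2% in statocyst. For lower genes these shares were 99.1% and 52.8%, 60.8% and 21.2%, 47.2% and 17.5%, 28.8% and 7.55%, and 47.2% and 9.91%. Over the 8730 genes they were 99.4% and 37.6%, 98.0% and 41.0%, 96.0% and 36.2%, 88.0% and 30.3%, and 93.1% and 41.3%. Of 54 described genes followed singly, which include every described gene named in the text, 51 still passed 4-fold with either scaling and 50 with a pseudocount of 5 CPM. Signs could not change, since the scalings moved ratios by far less than 4-fold and the other settings keep their sign. No paired analysis was possible because each tissue compared has 1 column and its replicate numbers are lanes of 1 library. Leaving out a replicate was likewise not possible. Reads in skin limit what can be seen at low levels, where 1 read is 0.209 CPM.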
